A study of Caenorhabditis elegans with 4 samples.

Results

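The broad regions bound by HLH-1::GFP in embryos of the nematode Caenorhabditis elegans are the peaks of 1000 bp or more in the deposited peak list, 248 of 13091 peaks (1.89%). They were selected on their width as called by the authors (the end minus the start, both bases counted), so their width is not a result. Because wide peaks also tend to have small q-values (the caller's p-value after adjustment for the many regions tested), their q-values are given as a description. The peaks of 200 to under 500 bp, 6208 in number, serve as the background. The list was made from chromatin immunoprecipitation and sequencing (ChIP-seq) of 2 HLH-1::GFP ChIP samples and 2 input samples, the fragmented chromatin before precipitation. All 4 came from hermaphrodite embryos of strain OP64, grown at 20 °C, all with the unc-119(ed3) allele on chromosome III and the wgIs64 transgene, which holds unc-119(+) together with hlh-1::TY1::EGFP::3xFLAG. The strain was made by biolistic transformation. Chromatin of whole embryos, with the cells of every tissue pooled, was precipitated with a goat polyclonal antibody against GFP. It is 1 combined list with no value of a single replicate and no read counts, so neither a replicate error nor the depth of a peak can be given, and no test was made.

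HLH-1 is the worm relative of MyoD, a transcription factor of the basic helix-loop-helix class. Proteins of this class bind short E-box sequences as dimers, and HLH-1 is known for its part in making body wall muscle in the embryo. A ChIP-seq peak is a stretch of the genome over which precipitated DNA exceeds the input, and 1 peak can span more than 1 binding position. Worm chromosomes have gene-dense centres and arms with more repeats and more recombination. No gene is assigned to a peak and no peak sequence is shown, because gene positions and sequence of the WormBase WS180 build, on which all coordinates here are given, were not used here.

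Most broad peaks were less than 1500 bp wide. Of the 248, 70 were 1000 to under 1100 bp wide and 177 (71.4%) were under 1500 bp, while 31 (12.5%) were 2000 bp or wider. The median width was 1230 bp, with quartiles of 1090 and 1564 bp, and the background peaks had a median of 298 bp. Together the broad peaks covered 355547 bp, which is 9.16% of all bases in peaks, against 49.8% in the background peaks. A q of 1e-10 or less was reached by 214 broad peaks (86.3%), by 1371 background peaks (22.1%) and by 19.2% of all peaks. A q of 1e-30 or less was reached by 124 broad peaks (50%), by 133 background peaks (2.14%) and by 4.02% of all peaks. Some background peaks thus also stood at the strong end of the list, but as a much smaller share of their class. The widest peaks under the limit were 999 bp (chromosome II from 9356068 to 9357066, q of 2.60e-38) and 998 bp (chromosome V from 7829091 to 7830088, q of 6.22e-05). Peaks on chromosomes I and II tied with the latter at 998 bp, with q-values of 6.18e-08 and 1.08e-08. Those just over it were 1000 bp (chromosome V from 6481423 to 6482422, q of 2.11e-06) and 1002 bp (chromosome I from 9550655 to 9551656, q of 1.01e-67). On both sides of the limit the q-values were far apart.

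**Figure D1:**
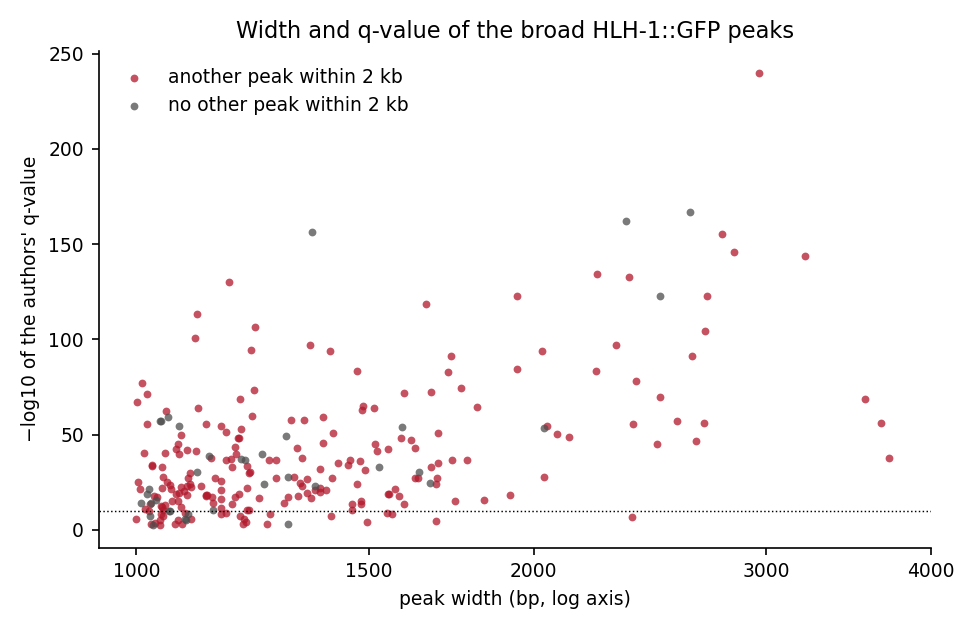
Width (bp, log axis) of each of the 248 broad peaks against −log10 of the authors' q-value, with the 212 that have another peak within 2 kb in red and the 36 without one in grey; the dotted line is a q of 1e-10. Most points lie below 1500 bp, and the points without a close neighbour are spread over the widths up to 2627 bp and over weak and strong q-values.

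The 10 widest peaks lay on all 6 chromosomes: 3 on III, 2 on II, 2 on IV and 1 each on I, V and X. The widest, 3721 bp on chromosome V from 724548 to 728268, stood near the left end of its chromosome and had a q of 2.68e-38. Another 4 peaks lay within 10 kb of its edges, none of them broad. The third widest, 3566 bp on X from 4960389 to 4963954 (q of 1.61e-69), had 5 peaks within 10 kb, of which 2 were broad. The widest of chromosome II, 2781 bp from 9059860 to 9062640 (q of 5.53e-156), had 11 peaks within 10 kb, none broad, the nearest at 585 bp. The widest of chromosome IV, 2708 bp from 3231326 to 3234033 (q of 1.68e-123), had 4 peaks within 10 kb, and its nearest neighbour was 224 bp wide and 390 bp away. On chromosome III the widest had 3669 bp (10905906 to 10909574) and on chromosome I 2962 bp (9372729 to 9375690); each had a neighbour closer than 300 bp, at 261 and 246 bp. All 10 had another peak within 2 kb, 3 had another broad peak within 10 kb, and 8 lay in chromosome arms. The arms are 2 of 3 equal parts of each chromosome. Of all peaks, 6688 of 10626 on the autosomes and 1620 of 2465 on X lay in arms, so the 8 show no particular placement. Per the labels the strain carries extra hlh-1 and unc-119 DNA, so reads there can be more numerous; the positions of both loci on WS180 were not used here, so whether a broad peak lies at one of them was not tested.

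Some broad peaks had q-values near the limit of the list. The 3 with the largest q were a peak of 1042 bp on chromosome IV from 14072081 to 14073122 (q of 0.00382), a peak of 1029 bp on V from 264934 to 265962 (q of 0.00212) and a peak of 1302 bp on III from 9770736 to 9772037 (q of 0.00109). They had 1, 2 and 3 other peaks within 10 kb. By comparison, the broad peaks had a median of 5 peaks within that distance.

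The placement of broad peaks on the chromosomes was compared with that of the background peaks. X held 56 broad peaks (22.6%, exact 95% binomial interval 17.5 to 28.3), against 20.1% of the background peaks and 18.8% of all peaks, and the background share lies inside the interval of the broad share. The autosomes held 42 on IV, 42 on V, 41 on III, 37 on I and 30 on II. Per length, X had 3.16 broad peaks per Mb and the autosomes 2.33; III had 2.98, I 2.47, IV 2.40, V 2.01 and II 1.96. For each 100 background peaks there were 4.49 broad peaks on X, 4.43 on III, 4.15 on IV, 3.92 on V, 3.62 on I and 3.23 on II. Broad peaks made up 2.27% of the peaks of X (interval 1.72 to 2.94) and 1.81% of those of the autosomes (interval 1.56 to 2.08). These intervals overlap. They cover counting error only and treat peaks as independent, which neighbouring peaks are not. Among the 71 peaks of 1500 bp or more, X held 11 (15.5%), a share below that of the background in value.

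Along the autosomes, cut into 3 equal parts, the centres held 84 of 192 broad peaks (43.8%, interval 36.6 to 51.1), against 39.4% of the background peaks and 37.1% of all autosomal peaks. That is 3.06 broad peaks per Mb in centres and 1.97 in arms; the background peaks numbered 71.1 and 54.7 per Mb. The background share lies inside the interval, and with the centre taken as the middle 50% of each autosome the order of the values turned round, 57.3% of broad against 58.9% of background peaks. Of the 60 autosomal peaks of 1500 bp or more, 38.3% lay in the middle of 3 parts, also below the background in value. On chromosome I, 23 of 37 broad peaks (62.2%, interval 44.8 to 77.5) lay in the centre but 4 (10.8%) in the right arm, against 37.05% and 30.8% of its background peaks, both outside the broad intervals (3.025 to 25.4 for the right arm). In each part of the other chromosomes the background share lay inside the interval of the broad share. With 3 parts compared on each chromosome and no adjustment for that number, some intervals can miss the background share by counting error alone. The centre and right-arm shares of chromosome I are also tied, since the parts of a chromosome share its total. The intervals treat peaks as independent, which neighbouring peaks are not, so no particular placement on chromosome I is drawn from them. Of the 42 on chromosome V, 21 lay in the centre (50%, interval 34.2 to 65.8), against 39.3% of the background peaks, and 7 lay in the right arm (16.7%, interval 6.97 to 31.4), against 29.1%. On chromosome IV the right arm held the most, 18 of 42 (42.9%, interval 27.7 to 59.04), against 28.8% of the background peaks, and on chromosome III the right arm held 16 of 41 (39.02%), against 31.4%. Chromosome II had 13 of 30 in the centre (43.3%), close to its background share of 43.7%. On X the counts were 21 and 15 in the left and right arms and 20 between them.

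**Figure D2:**
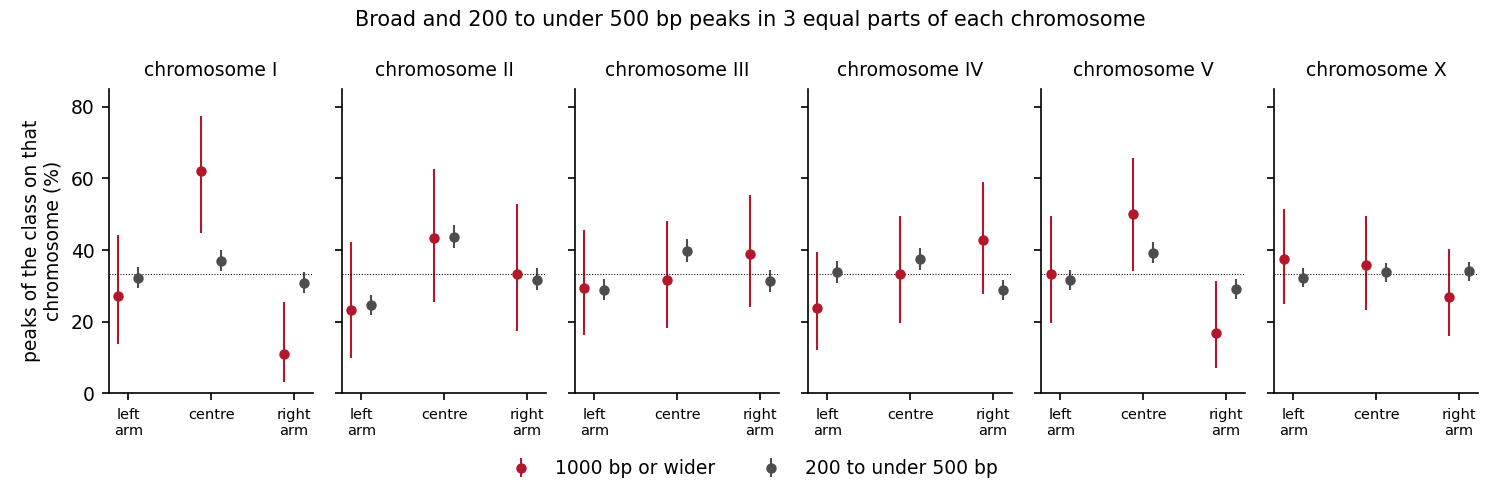
Share (%) of the broad peaks (red) and of the peaks of 200 to under 500 bp (grey) of each chromosome that lies in its left arm, centre and right arm; bars are exact 95% binomial intervals and the dotted line is an even share. The broad peaks of chromosome I stand at 62.2% for the centre but 10.8% for the right arm, and those of chromosome IV at 42.9% in the right arm.

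In blocks of 1 Mb the number of broad peaks varied. The last block of a chromosome ends at its last peak and so can be shorter than 1 Mb. That on II from 15 to 16 Mb, which held no broad peak, is cut short, as II spans 15.27 Mb. The 102 blocks held 2.43 ± 1.84 broad peaks (SD over blocks), 10 blocks held none, and 13 held 5 or more. The fullest was on chromosome I from 7 to 8 Mb, with 10 broad peaks among 154 peaks; the next were on III from 9 to 10 Mb with 8 and on X from 4 to 5 Mb with 7. Of the 10 empty blocks, 5 were on chromosome V. The longest stretch without a broad peak was also on V, 3310 kb from 15395977 to 18705572, and held 301 narrower peaks. The longest on chromosome I was 3072 kb from 10770290 to 13842314, and 400 narrower peaks lay in it. These stretches thus lacked broad peaks but not peaks. The blocks and stretches were singled out after their values were seen.

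The number, distance and width of the peaks around the broad regions were compared next, and broad peaks had close neighbours more often than background peaks. Distances are the bases between the edges of 2 peaks, so that the width of a peak uses up none of the window searched. Another peak lay within 2 kb of 212 of the 248 broad peaks (85.5%, interval 80.5 to 89.6), against 3542 of the 6208 background peaks (57.1%, interval 55.8 to 58.3) and 55.3% of all peaks. The intervals do not overlap, but they treat peaks as independent, which neighbouring peaks are not. The mean number within 2 kb was 1.73 ± 1.17 around broad peaks and 0.875 ± 0.947 around background peaks (SD over peaks). A neighbour within 2 kb on both sides was found for 103 broad peaks (41.5%, interval 35.3 to 47.9), against 16.0% of background peaks and 15.9% of all peaks. The sides were alike: 64.5% of broad peaks had one on the left and 62.5% on the right. The nearest neighbour of a broad peak was a median of 635.5 bp away (interval 483 to 739, by order statistics) and that of a background peak 1584 bp (interval 1528 to 1649). Peaks of the list were never closer than 200 bp, and how calls nearer than that were treated before deposit, and what this did to widths, was not tested.

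The excess of neighbours was local. From 0.2 to 0.5 kb from the edge, neighbours numbered 0.867 per kb around broad peaks and 0.316 around background peaks, a ratio of 2.74. The ratio was 1.85 from 0.5 to 1 kb, 1.72 from 1 to 2 kb, 1.43 from 2 to 5 kb, 1.29 from 5 to 10 kb and 1.14 from 10 to 20 kb. From 20 to 50 kb both classes had 0.137 neighbours per kb. Counted over all peaks, the surroundings of broad peaks were thus denser in value over the nearest 20 kb and not from 20 to 50 kb, the farthest distance examined. Other peaks covered a mean of 14.3% of the 5 kb on each side of a broad peak, against 6.51% beside a background peak.

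**Figure D3:**
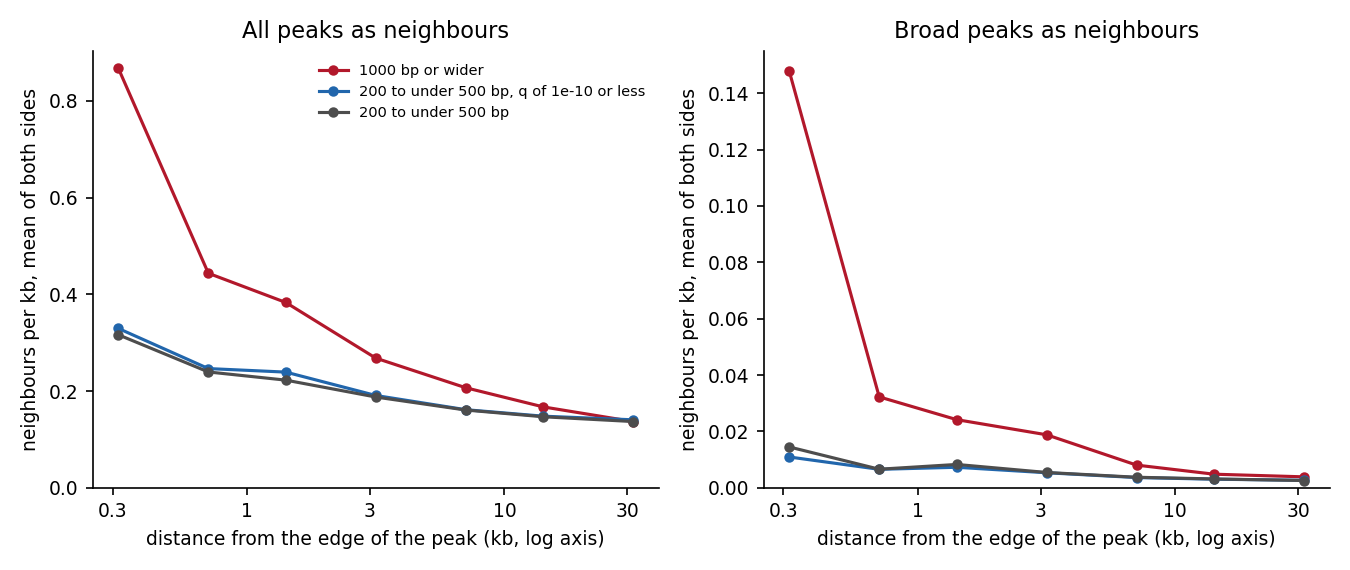
Mean number of neighbouring peaks per kb, over both sides, against the distance from the edge of the peak (kb, log axis), for broad peaks (red), for peaks of 200 to under 500 bp with a q of 1e-10 or less (blue) and for all peaks of 200 to under 500 bp (grey); the left panel counts all peaks as neighbours and the right panel broad peaks only. In the left panel the red line starts at 0.867 per kb, the blue at 0.329 and the grey at 0.316, and the lines meet at 20 to 50 kb.

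Background peaks of small q had close neighbours less often in value than broad peaks of small q. Of the 214 broad peaks that reached 1e-10, 86.9% had another peak within 2 kb (interval 81.7 to 91.1), against 59.96% of the 1371 background peaks that did (interval 57.3 to 62.6). With a q of 1e-50 or less, 59 of 69 broad peaks (85.5%) had a neighbour within 2 kb, against 12 of 22 background peaks (54.5%, interval 32.2 to 75.6). At the weak end, with a q above 1e-10, 26 of 34 broad peaks (76.5%, interval 58.8 to 89.2) had one, against 56.2% of 4837 background peaks. Within the broad class the share did not follow q in order: it was 85.5% at 1e-50 or less, 85.5% from there up to 1e-30, 88.9% from there up to 1e-10, and 76.5% above, and the 4 intervals overlap.

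The share with a neighbour was higher in wider classes of peaks, from 100 bp up to 1000 bp. It was 44.5% for peaks under 50 bp, 48.9% from 50 to under 100 bp, 47.3% from 100 to under 200 bp, 57.1% from 200 to under 500 bp and 70.2% from 500 to under 1000 bp. Among broad peaks it was 84.2% from 1000 to under 1500 bp (interval 77.9 to 89.2), 36 of 40 from 1500 to under 2000 bp and 27 of 31 (87.1%) at 2000 bp or more. The 3 broad classes overlap in their intervals. The class of 500 to under 1000 bp thus stood between the background and the broad peaks.

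**Figure D4:**
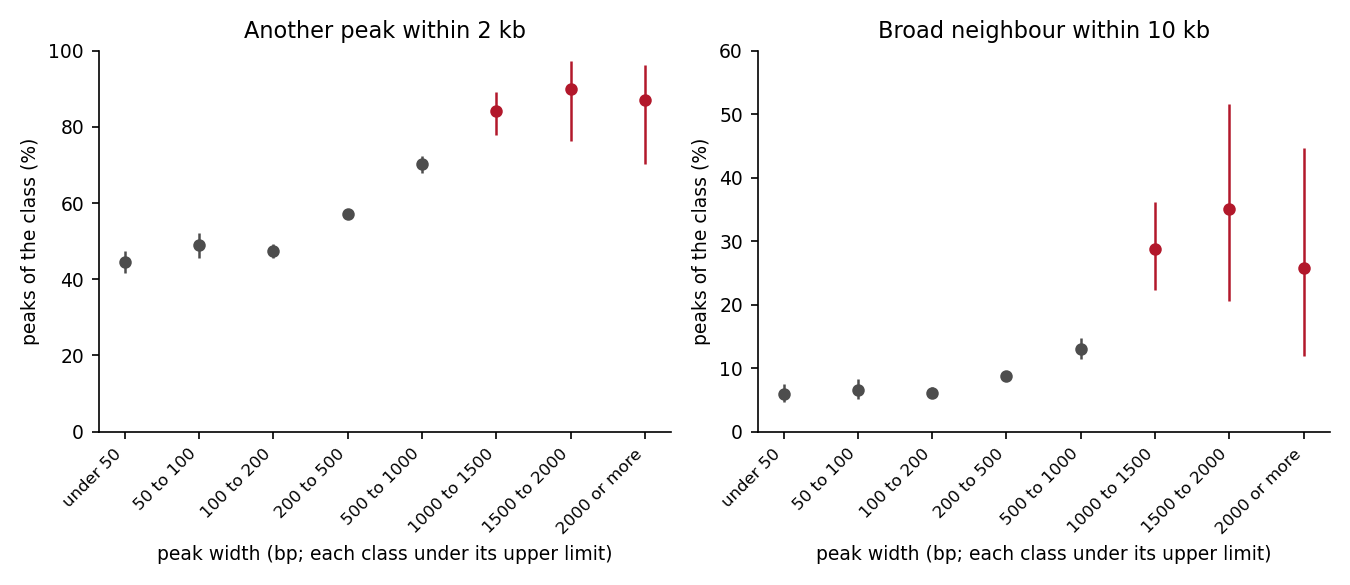
Share (%) of peaks with another peak within 2 kb (left) and with a broad peak other than itself within 10 kb (right) in 8 classes of peak width (bp), broad classes in red; bars are exact 95% binomial intervals. On the left the share is 47.3% at 100 to under 200 bp and 84.2% at 1000 to under 1500 bp; on the right the values are 6.13% and 28.8%.

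The difference was seen chromosome by chromosome. The share of broad peaks with a peak within 2 kb was 89.2% on I, 70% on II, 85.4% on III, 81.0% on IV, 88.1% on V and 92.9% on X. The background peaks had 59.5%, 59.3%, 55.6%, 54.8%, 56.5% and 56.7% in the same order of chromosomes. The broad value was the higher on 6 of 6 chromosomes, with means of 84.4 ± 8.10% for broad and 57.1 ± 1.94% for background peaks (SD over 6 chromosomes, which are not replicates). Only on chromosome II did the interval of the broad share (50.6 to 85.3) overlap that of the background. The nearest neighbour was also closer on 6 of 6 chromosomes, with medians from 459 bp on X to 876.5 bp on II for broad peaks and from 1518 bp on V to 1672 bp on IV for background peaks.

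Broad peaks also lay near each other. Another broad peak was within 10 kb of 73 of the 248 (29.4%, interval 23.8 to 35.5), against a broad peak within 10 kb of 541 background peaks (8.71%, interval 8.02 to 9.44) and of 8.65% of all peaks. Peaks of 500 to under 1000 bp stood between these classes, with 208 of 1606 (12.95%, interval 11.35 to 14.69). When the background peaks were weighted to the 1-Mb blocks in which the broad peaks lay, their share was 13.3%, still below the interval of the broad share. A pair of broad peaks is counted from both of its members here, so the 73 peaks are fewer independent cases than their number. By distance, broad neighbours were 10.2 times as frequent around broad peaks as around background peaks from 0.2 to 0.5 kb, 4.88 times from 0.5 to 1 kb, 2.92 times from 1 to 2 kb, 3.45 times from 2 to 5 kb, 2.15 times from 5 to 10 kb, 1.53 times from 10 to 20 kb and 1.51 times from 20 to 50 kb. These ratios rest on few pairs, and no interval was computed for them. Of successive broad peaks, 11 pairs were under 500 bp apart, 15 under 1 kb and 21 within 2 kb. By chromosome the broad share was 43.9% on III, 38.1% on V, 35.7% on X, 24.3% on I, 19.0% on IV and 6.67% on II (2 of 30). The background share stayed between 8.18% on II and 9.06% on X. On chromosome II the broad value was thus below the background, and on IV the intervals overlapped (8.60 to 34.1% for broad and 6.94 to 10.5% for background peaks). With a limit of 1500 bp for both members of a pair, 7 of 71 peaks (9.86%, interval 4.06 to 19.3) had another such peak within 10 kb, against 2.88% of the background peaks.

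**Figure D5:**
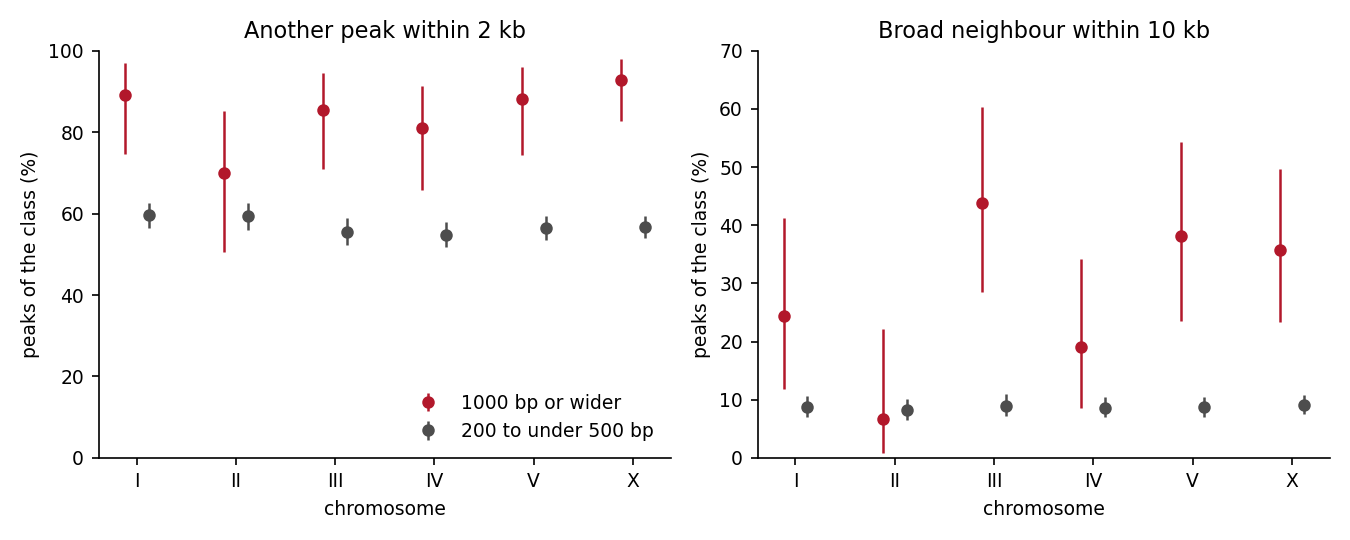
Share (%) of broad peaks (red) and of peaks of 200 to under 500 bp (grey) on each chromosome with another peak within 2 kb (left) and with a broad peak other than itself within 10 kb (right); bars are exact 95% binomial intervals. On the left the broad shares run from 70% on II to 92.9% on X; on the right from 6.67% on II to 43.9% on III, with the background between 8.18 and 9.06%.

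Of 242 pairs of successive broad peaks on a chromosome, 40 were within 10 kb of each other, 21 within 2 kb and 11 under 500 bp, while the median distance over all pairs was 240 kb. Joined at 10 kb, the 248 peaks formed 175 single peaks, 28 pairs, 4 groups of 3 and 1 group of 5. The group of 5 was on X from 7214590 to 7235184. Its members were 1212, 1456, 1626, 2378 and 1327 bp wide, with q-values from 3.98e-56 to 6.45e-11, and with 5 narrower peaks they covered 50.3% of 20.6 kb. The other group on X, from 4956995 to 4972485, had widths of 1160, 3566 and 1386 bp and contains the third widest peak of the list. On chromosome V a group of 3 from 10715737 to 10723513 held no narrower peak, and its members of 2083, 2639 and 1744 bp covered 83.1% of 7.78 kb. Their q-values of 5.10e-51, 4.03e-92 and 1.26e-15 differed widely. Another group on V, from 4498905 to 4508497, had widths of 1099, 1219 and 1733 bp and 2 narrower peaks. The group on chromosome I, from 6153400 to 6167035, had widths of 1354, 1385 and 1044 bp and 4 narrower peaks among them.

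Broad peaks were common in runs of peaks, here chains in which each peak lies within 2 kb of the next. The distance is that of the neighbour counts above, so the shares in runs are not independent of those counts. Broad peaks standing alone are the same 36 that had no other peak within 2 kb. In runs of 5 or more peaks stood 86 broad peaks (34.7%, interval 28.8 to 41.0), against 10.4% of background peaks (interval 9.63 to 11.2) and 11.0% of all peaks. Of the 5849 peaks standing alone, 36 (0.616%) were broad. Of 2354 runs of 2 to 4 peaks 119 held a broad peak (5.06%), of 214 runs of 5 to 9 peaks 55 did (25.7%), and of 15 runs of 10 or more 8 did. Longer runs hold more peaks, and the share of broad peaks among their peaks was 2.17% in runs of 2 to 4, 5.96% in runs of 5 to 9 and 6.25% in runs of 10 or more (11 of 176). The longest run, 22 peaks on chromosome II, contained 1 broad peak of 1014 bp, from 6838284 to 6839297 with a q of 8.01e-41. That peak had 15 others within 10 kb, the highest number around a broad peak, and its nearest neighbour was 979 bp wide, 1760 bp away.

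The neighbours of broad peaks were themselves somewhat wide. The nearest neighbour had a median width of 331 bp (interval 295 to 368), against 256 bp (interval 250 to 263) for the nearest neighbour of a background peak. It was the wider on 6 of 6 chromosomes, from 249.5 bp on V to 395 bp on X around broad peaks and from 225 bp on V to 293 bp on X around background peaks. The nearest neighbour was itself broad for 27 broad peaks (10.9%) and for 2.17% of background peaks. It was under 100 bp wide for 8.47% of broad and 15.6% of background peaks, so very short neighbours were the less common kind beside broad peaks. A q of 1e-10 or less was found in the nearest neighbour of 27.4% of broad and 20.8% of background peaks. Within 5 kb, the 828 neighbours counted around broad peaks had a median width of 340 bp, and those counted around background peaks 277 bp.

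A few broad peaks were isolated. No other peak was within 10 kb of 3 of the 248 (1.21%), against 385 background peaks (6.20%) and 7.01% of all peaks. They were named after their values were seen: 2494 bp on chromosome IV from 14032407 to 14034900, 1528 bp on IV from 8333306 to 8334833, and 1637 bp on V from 9342987 to 9344623. Their nearest neighbours were 11978, 16463 and 15288 bp away. The first had a q of 2.61e-123 and ranked 14 in the whole list, and the others had q-values of 6.63e-34 and 2.94e-31. All broad peaks had another peak within 20 kb, where 59 background peaks had none.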

How the data were processed

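The data are 1 combined peak list from 2 ChIP and 2 input samples, grouped by their descriptions. Per the file headers, coordinates are on WormBase WS180 and PeakSeq is the source of the peaks; version, aligner and scaling: not given in the sources used here. The authors deposited a q-value for every peak beside its position, and the largest is 0.00994, so weaker regions are outside the list. Read depth is unknown.

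Widths, distances between edges (0 peaks overlap) and shares were computed with pandas 2.3.3, numpy 2.4.6 and scipy 1.17.1 under Python 3.11.15, and plotted with matplotlib 3.10.9. Shares have exact (Clopper-Pearson) 95% binomial intervals and medians order-statistic intervals. Both cover counting error only and treat peaks as independent, which neighbouring peaks are not. Chromosomes were taken from base 1 to the end of the last peak, and cut into 3 equal parts at peak midpoints. The distance code was checked on simulated lists. No test was made, since the list merges both replicates. The members, classes and distances were chosen with earlier results of these data known. Regions named by rule are the 10 widest peaks and the widest of each chromosome (some given only in the counts). The rule also took the 3 with the largest q, peaks next to the width limit and the broad peak with the most neighbours. Groups of 3 or more within 10 kb were named by it too. The isolated broad peaks, the 1-Mb blocks and the longest stretches without a broad peak were named after their values were seen.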

Additional observations from a re-analysis of the deposited data

How the results depend on the processing

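Of 46 recomputed values, 24 stayed inside the 95% interval of the value reported and 22 did not. A limit of 1500 bp, reached by 71 peaks, gave 15.5% of broad peaks on X and 9.86% with another such peak within 10 kb. The background share with a peak of that width within 10 kb was 2.88%. A limit of 800 bp gave 80.3% with a peak within 2 kb. From midpoint to midpoint, 65.3% of broad and 51.8% of background peaks had a peak within 2 kb, since a wide peak fills part of that window itself. The middle 50% as centre gave 57.3% and 58.9%, which turns the order round. Members with a q above 1e-10 (34 peaks, added after seeing the data) gave 76.5% within 2 kb and 23.5% with a broad neighbour. For all peaks under 1000 bp as background the values were 18.8% on X, 36.9% in centres, 54.7% within 2 kb and a neighbour width of 248 bp. For background peaks with a q of 1e-10 or less they were 23.4%, 42.8% and 59.96%, with the X share above the 22.6% of all broad peaks. Broad peaks under the same limit on q had 23.4% on X, 45.7% in centres and 86.9% within 2 kb. With that limit on both classes the X shares were thus alike. For background peaks with a q of 1e-30 or less (133 peaks, added afterwards) the values were 62.4% within 2 kb and 5.26% with a broad neighbour. Weighted to the 1-Mb blocks of broad peaks, the background had 13.3% with a broad neighbour and a neighbour width of 269 bp. With neighbours of 50 bp or more only, 54.5% of background and 83.1% of broad peaks had a peak within 2 kb. The neighbour widths were then 274.5 bp for background and 353.5 bp for broad peaks. In the alternatives here, over all chromosomes, broad peaks had the higher value in the neighbour measures; for broad neighbours at a limit of 800 bp no matching background was computed. Their placement on X and in centres stood above or below the background with the setting. No paired analysis was possible because both replicates are merged in the list, and for the same reason no replicate could be left out. The limit on q and the unknown depth restrict what weak peaks can show.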
